A study of Homo sapiens with 4 samples.

Results

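The NF-κB subunits and their feedback inhibitors were represented by 10 probes, 1 for each of NFKB1, NFKB2, REL, RELA, RELB, NFKBIA, NFKBIB, NFKBIE, TNFAIP3 and BCL3. The probes were chosen by the gene name in the array files, with control spots left out, and were 10 of the 14297 gene probes on the array, which carried 14267 gene names. All 10 passed the filter on dim probes, which left 8852 probes for the test.

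The arrays compared K562 cells, a human erythroleukemia cell line, after 4 h with the compound AC-1041 with control K562 cells kept for the same 4 h. Every array held both RNAs, 1 in each colour, so each of the 4 arrays gave its own treated-to-control ratio. Cy5 marked the treated RNA on arrays 1 and 2, and the dyes were swapped on arrays 3 and 4. The labels name the control cells as untreated and give no dose, while the methods describe controls that received the solvent DMSO. All RNA came from a single cell line, and the sources used here do not state which culture went on which array, so the spread between arrays may be technical.

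NF-κB transcription factors are dimers of REL-domain proteins that stay in the cytoplasm bound to IκB proteins until a kinase complex, IKK, marks the inhibitor for destruction. In the canonical pathway dimers of p50 (from NFKB1) with p65 (RELA) or c-Rel (REL) are released within minutes, while in the non-canonical pathway the kinase NIK (MAP3K14) drives the processing of p100 (NFKB2) to p52, which pairs with RelB. Several genes of the system are themselves targets of NF-κB, among them NFKBIA, NFKBIE, TNFAIP3, NFKB1, NFKB2, REL, RELB and BCL3, and the inhibitors among them close the feedback loop.

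The NF-κB consensus motif, the sequence bound by these dimers, was looked for on both strands in the 250 bases before each start of transcription in a table of RefSeq promoters on GRCh38.p14. The table of windows used here matched 8 of the 10 genes, and windows of RELB and NFKBIE were not analysed here. Of the 13 windows of these 8 genes, 7 windows of 6 genes held a match, against 9.96% of the 35116 windows of all genes. The 4 windows below are shown because they lie before the only or the outermost start of a gene described here and hold the motif, which is in capitals. Where matches overlap, the capitals run over all of them. Each sequence is on the strand of its gene and ends at the base before the start. The windows were chr4:102501109-102501358 on the plus strand for NFKB1, chr2:60881324-60881573 on the plus strand for REL, chr14:35404750-35404999 on the minus strand for NFKBIA and chr6:137867009-137867258 on the plus strand for TNFAIP3.
NFKB1: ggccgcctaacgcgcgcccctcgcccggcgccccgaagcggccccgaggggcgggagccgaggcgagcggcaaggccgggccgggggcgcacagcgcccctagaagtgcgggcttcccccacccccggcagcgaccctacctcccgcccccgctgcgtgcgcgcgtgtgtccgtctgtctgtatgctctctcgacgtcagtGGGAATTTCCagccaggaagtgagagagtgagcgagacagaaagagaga
REL: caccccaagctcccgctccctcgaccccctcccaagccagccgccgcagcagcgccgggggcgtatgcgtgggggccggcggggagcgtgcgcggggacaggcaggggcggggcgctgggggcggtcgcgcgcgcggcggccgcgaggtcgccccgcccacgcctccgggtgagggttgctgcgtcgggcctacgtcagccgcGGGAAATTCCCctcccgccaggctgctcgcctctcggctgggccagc
NFKBIA: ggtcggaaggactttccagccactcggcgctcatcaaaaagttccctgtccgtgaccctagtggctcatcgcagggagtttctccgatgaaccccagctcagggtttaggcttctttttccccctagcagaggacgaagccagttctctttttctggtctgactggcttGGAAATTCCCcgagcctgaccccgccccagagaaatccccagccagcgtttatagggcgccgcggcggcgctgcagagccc
TNFAIP3: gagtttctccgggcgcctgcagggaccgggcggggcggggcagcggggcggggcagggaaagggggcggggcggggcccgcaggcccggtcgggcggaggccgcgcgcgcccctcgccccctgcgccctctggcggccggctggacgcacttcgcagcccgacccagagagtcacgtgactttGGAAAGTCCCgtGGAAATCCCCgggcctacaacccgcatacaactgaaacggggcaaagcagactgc

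The single match of NFKB1 was GGGAATTTCC, and its last base lay 40 bases before the start. REL held the overlapping matches GGGAAATTCC and GGAAATTCCC, which ended 38 and 37 bases before the start. NFKBIA had GGAAATTCCC ending 72 bases before the start, and TNFAIP3 had GGAAAGTCCC and GGAAATCCCC ending at 58 and 46 bases. The remaining matches lay before inner starts. NFKB2 held 5, among them GGGACTTTCC at 12 bases before its innermost start, and NFKBIB held the overlapping pair GGGAATTTCC and GGAATTTCCC at 19 and 18 bases. No match was found in these windows of RELA and BCL3. The SP1 motif GGGCGG stood in 11 of the 13 windows and in 42.6% of all windows, the AP-1 motif TGANTCA in 1 of the 13 and in 6.57%, and the cAMP response motif TGACGTCA in 0 of the 13 and in 1.65%. Such a match is a stretch of letters and was not tested for binding. Of the 6 genes with a match, NFKB2, REL and NFKBIB rose in treated cells, and NFKB1, NFKBIA and TNFAIP3 did not pass the test described next.

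The arrays of the 2 dye orientations stood apart. Over the tested probes the log2 ratios of arrays 1 and 2 correlated with r = 0.81 and those of arrays 3 and 4 with r = 0.94, while r was from -0.28 to -0.11 for arrays of unlike orientation. The negative control spots had an SD from 227 to 308 intensity units on arrays 1 and 2 and from 27.1 to 40.2 on arrays 3 and 4, so dye orientation and background cannot be told apart. The limma fit therefore had a term for the dye, and its standard errors come only from differences within an orientation, whereas each SD below is over all 4 arrays. All 14 erythroid markers on the array gave signal well above background in each channel on at least 2 arrays, as did 6 of 12 lymphoid and monocyte markers. The latter included CD79A and LYZ, which did so on all 4 arrays, while MS4A1, CSF1R and CD8A did so in no channel of any array. Of the erythroid markers 8 were lower and 1 was higher in treated cells, and of the lymphoid and monocyte markers 2 were lower and 0 were higher, at an adjusted p under 0.05. Their part in the results for the NF-κB genes was not tested.

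Of the 10 genes, 5 rose in treated cells and 0 fell at an adjusted p under 0.05 (limma, Benjamini-Hochberg over all 8852 probes), while 36.3% of all tested probes passed this threshold, 23.2% as higher and 13.1% as lower. RELB, NFKBIE, REL, NFKB2 and NFKBIB passed the test, and NFKB1, RELA, NFKBIA, TNFAIP3 and BCL3 did not. The fitted ratio was above 0 for 9 of the 10 genes and for 52.2% of all tested probes. Its median over the 10 genes was 0.34 on the log2 scale, against 0.01 over all tested probes. RELB, NFKBIE and NFKB2 were higher on every array, as were 14.7% of all tested probes. A ratio here is relative to the other probes of the same array, so a change in the total RNA of a cell would not be seen.

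**Figure D1:**
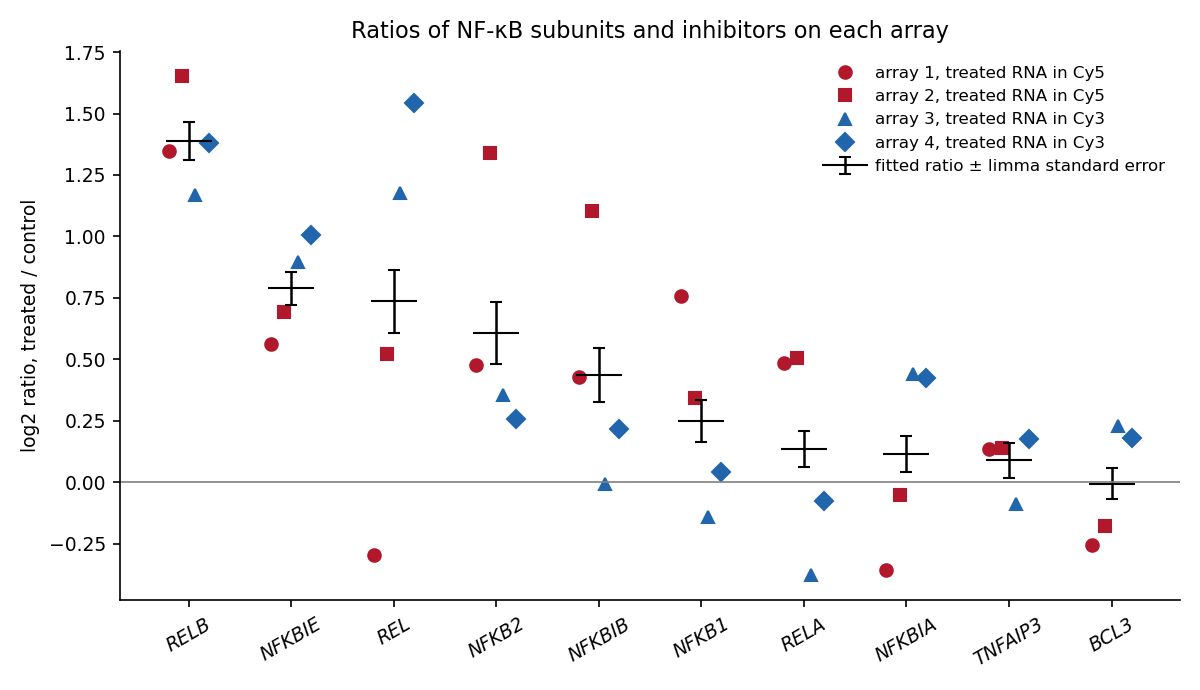
Log2 ratio of treated to control cells (y axis) for the 10 genes (x axis, ordered by fitted ratio), with 1 point for each array, red for treated RNA in Cy5 and blue for Cy3, and the fitted ratio with its limma standard error in black. The 4 points of RELB lie between 1.17 and 1.65, while those of RELA, NFKBIA and BCL3 lie on different sides of 0 in the 2 colours.

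RELB encodes a subunit that activates transcription and is the usual partner of p52 in the non-canonical pathway. The log2 ratio of RELB was 1.35, 1.65, 1.17 and 1.38 on arrays 1 to 4. All arrays were high, in both orientations, and the treated channel was above the control channel on each. The loess-normalised intensity was 3195, 3669, 2629 and 3769 in treated cells and 1255, 1166, 1170 and 1446 in control cells on arrays 1 to 4. The lowest treated value was thus above the highest control value, and the control channel of array 2 was the only one not well above background. Intensities were normalised within each array only, so a comparison across arrays also holds differences in array brightness. The share of all tested probes without such overlap is not given here. The fitted log2 ratio was 1.39 ± 0.20 (SD, n = 4 arrays), a 2.62-fold rise, with a 95% confidence interval from 1.21 to 1.57 and an adjusted p of 3.4e-05 (limma). RELB was past the threshold under each of the 16 alternatives that tested it, and it was the only one of the 10 genes past it when the dye term was left out (adjusted p = 0.0315, limma), where 0.604% of all probes passed, 0.559% as higher. The study placed RELB in a list of induced genes chosen on these same arrays, so this list is not independent evidence of its direction. The probe lay at chr19:50233225-50233284 on hg18.

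NFKB2 encodes p100, which holds RelB in the cytoplasm and is the precursor of p52. Arrays 1 to 4 gave log2 ratios of 0.48, 1.34, 0.36 and 0.26. Array 2 was well above the other three, and on that array neither channel was well above background. The intensity was 1436, 1120, 755 and 843 in treated cells against 1032, 443, 590 and 706 in control cells, so the 2 groups overlapped across arrays although treated was higher within each. The fitted log2 ratio was 0.61 ± 0.50 (SD, n = 4 arrays), 1.52-fold, with a confidence interval from 0.31 to 0.90 and an adjusted p of 0.0083 (limma). The call was lost without array 3 (adjusted p = 0.0805), without array 4 (adjusted p = 0.0774) and without the dye term (adjusted p = 0.282). The probe spanned chr10:104151043-104151219 on hg18.

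REL encodes c-Rel, a transcription-activating subunit best known from lymphoid cells. On arrays 1 to 4 the log2 ratio was -0.30, 0.52, 1.18 and 1.54. The arrays with treated RNA in Cy3 were high, array 2 was lower and array 1 had the opposite sign. The intensity of treated cells was 1220, 1873, 1643 and 2004 on arrays 1 to 4, while that of control cells was 1497 and 1306 on arrays 1 and 2 and 726 and 688 on arrays 3 and 4. The control channel thus differed more between the orientations than the treated one. Intensities were normalised within each array only, so this comparison also holds differences in array brightness and dye. The fitted log2 ratio was 0.74 ± 0.81 (SD, n = 4 arrays), 1.67-fold, with a confidence interval from 0.44 to 1.04 and an adjusted p of 0.0038 (limma). The mean was 0.11 over arrays 1 and 2 and 1.36 over arrays 3 and 4, and the term for the dye passed the threshold too (adjusted p = 0.0046). The call was lost without array 4 (adjusted p = 0.067), without the dye term (adjusted p = 0.380), with the processed signals of Feature Extraction (adjusted p = 0.0868) or the series table made from them (adjusted p = 0.0983), and on arrays 1 and 2 alone (adjusted p = 0.699). The probe lay at chr2:61003100-61003159 on hg18.

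NFKB1 and RELA encode p105, the precursor of p50, and p65, the pair that makes up the classical dimer, and neither passed the test. The log2 ratio of NFKB1 was 0.76, 0.34, -0.14 and 0.04 on arrays 1 to 4. It was above 0 on the arrays with treated RNA in Cy5 and near 0 on the others, with a fitted value of 0.25 ± 0.39 (SD, n = 4 arrays), a confidence interval from 0.05 to 0.45 and an adjusted p of 0.0522 (limma). This gene was just outside the threshold and passed it under 7 of 17 alternatives. For RELA the log2 ratios of arrays 1 to 4 were 0.48, 0.51, -0.38 and -0.08. Its sign turned with the dye orientation, and its fitted value was 0.13 ± 0.43 (SD, n = 4 arrays) with a confidence interval from -0.03 to 0.30 and an adjusted p of 0.185 (limma). On arrays 3 and 4 alone it was called lower at -0.23 (adjusted p = 0.0311), and on arrays 1 and 2 alone it was called higher at 0.49 (adjusted p = 0.0223). With median centring in place of loess it was also called higher, at 0.26 (adjusted p = 0.0331). The intensity of RELA was from 3787 to 6151 in treated and from 4043 to 5034 in control cells, so both groups overlapped. The probes lay at chr4:103756902-103756961 and chr11:65178227-65178286 on hg18.

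**Figure D2:**
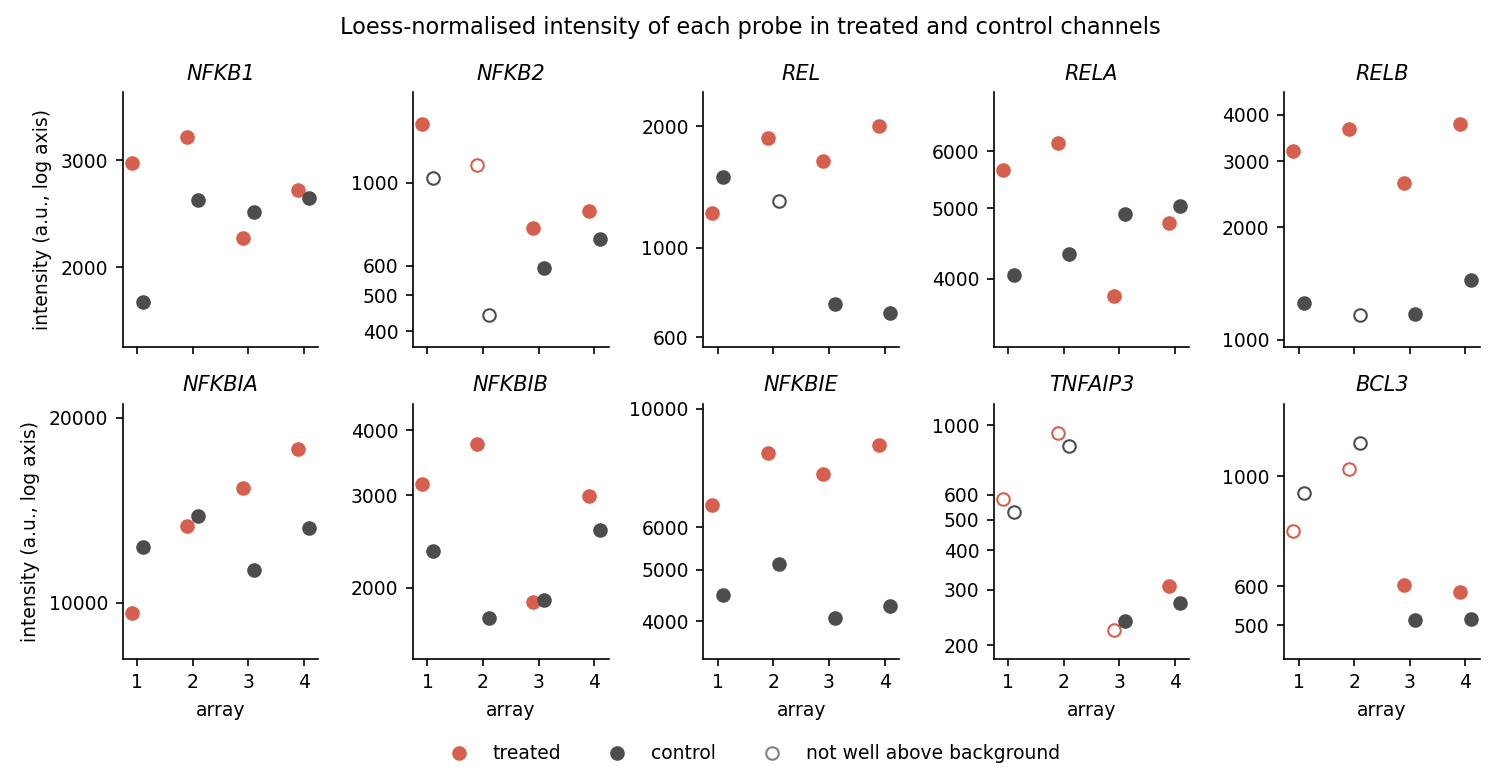
Loess-normalised intensity in arbitrary units (log y axis, scaled for each gene on its own) on arrays 1 to 4 (x axis) for treated (red) and control (grey) channels of the 10 probes, with open points where a channel was not well above background. For RELB and NFKBIE all treated points lie above all control points, and for TNFAIP3 only 3 of the 8 points are filled. Intensities were not scaled between arrays, and the share of all tested probes without such overlap is not given here.

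Among the IκB proteins, NFKBIE and NFKBIB passed the test and NFKBIA did not. NFKBIE encodes IκBε, which binds p65 and c-Rel dimers and returns slowly after a stimulus. Arrays 1 to 4 gave NFKBIE log2 ratios of 0.56, 0.69, 0.89 and 1.0. All 4 arrays were high, somewhat more so with treated RNA in Cy3. The intensity was from 6605 to 8568 in treated cells and from 4062 to 5121 in control cells, with every channel well above background and no overlap between the groups. As for RELB, the share of all tested probes without overlap is not given here. The fitted log2 ratio was 0.79 ± 0.20 (SD, n = 4 arrays), 1.73-fold, with a confidence interval from 0.64 to 0.94 and an adjusted p of 0.00015 (limma). It was past the threshold under 16 of 17 alternatives, the exception being the fit without the dye term (adjusted p = 0.0706). The probe lay at chr6:44334536-44334595 on hg18.

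NFKBIB encodes IκBβ, which is not known as a fast feedback target. The 4 arrays gave log2 ratios of 0.43, 1.11, -0.01 and 0.22. Array 2 was the highest, as it was for NFKB2, and array 3 was at about 0. The fitted log2 ratio was 0.44 ± 0.48 (SD, n = 4 arrays), 1.35-fold, with a confidence interval from 0.18 to 0.69 and an adjusted p of 0.0181 (limma), and the term for the dye passed as well (adjusted p = 0.0331). Of the 5 calls this was the one held under the fewest alternatives, 10 of 17. It was lost without array 3 (adjusted p = 0.0817), without array 4 (adjusted p = 0.167), without the dye term (adjusted p = 0.430), with the processed signals (adjusted p = 0.0771) or the series table (adjusted p = 0.0857), at the stricter threshold of 0.01 and on arrays 3 and 4 alone (adjusted p = 0.316). The intensity ranged from 1882 to 3758 in treated cells and from 1747 to 2580 in control cells, and the groups overlapped. The probe lay at chr19:44090543-44090602 on hg18.

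NFKBIA encodes IκBα, the inhibitor that is destroyed first and whose gene is a standard marker of canonical NF-κB activity. For NFKBIA the log2 ratio was -0.36, -0.05, 0.44 and 0.43 on arrays 1 to 4. The 2 arrays with treated RNA in Cy3 were above 0 and the 2 with Cy5 below it. The intensity was 9606, 13345, 15338 and 17762 in treated and 12304, 13831, 11291 and 13226 in control cells, well above background on every array. The fitted log2 ratio was 0.11 ± 0.39 (SD, n = 4 arrays), with a confidence interval from -0.05 to 0.28 and an adjusted p of 0.255 (limma). The orientations differed by 0.64, with an adjusted p of 0.0072 for the dye term. Within the orientations the value was 0.43 on arrays 3 and 4 alone (adjusted p = 5.7e-05) and -0.20 on arrays 1 and 2 alone (adjusted p = 0.254). Without array 1 it was 0.19 and past the threshold (adjusted p = 0.0444). The probe lay at chr14:34940539-34940598 on hg18.

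TNFAIP3 encodes A20, which edits ubiquitin chains upstream of IKK and is a feedback inhibitor like IκBα. The log2 ratios of arrays 1 to 4 were 0.13, 0.14, -0.09 and 0.17. The treated channel was well above background on 1 array and the control channel on 2, so most of these ratios compare signals close to background. The fitted value was 0.09 ± 0.12 (SD, n = 4 arrays), with a confidence interval from -0.07 to 0.25 and an adjusted p of 0.358 (limma). BCL3 encodes a nuclear IκB protein that works with p50 and p52 homodimers. On arrays 1 to 4 it had log2 ratios of -0.26, -0.18, 0.23 and 0.18, again with a sign that turned with the orientation. Its fitted value was -0.01 ± 0.25 (SD, n = 4 arrays), with a confidence interval from -0.15 to 0.14 and an adjusted p of 0.952 (limma), and both channels were well above background on arrays 3 and 4 only. The probes lay at chr6:138243003-138243062 and chr19:49955031-49955090 on hg18.

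**Figure D3:**
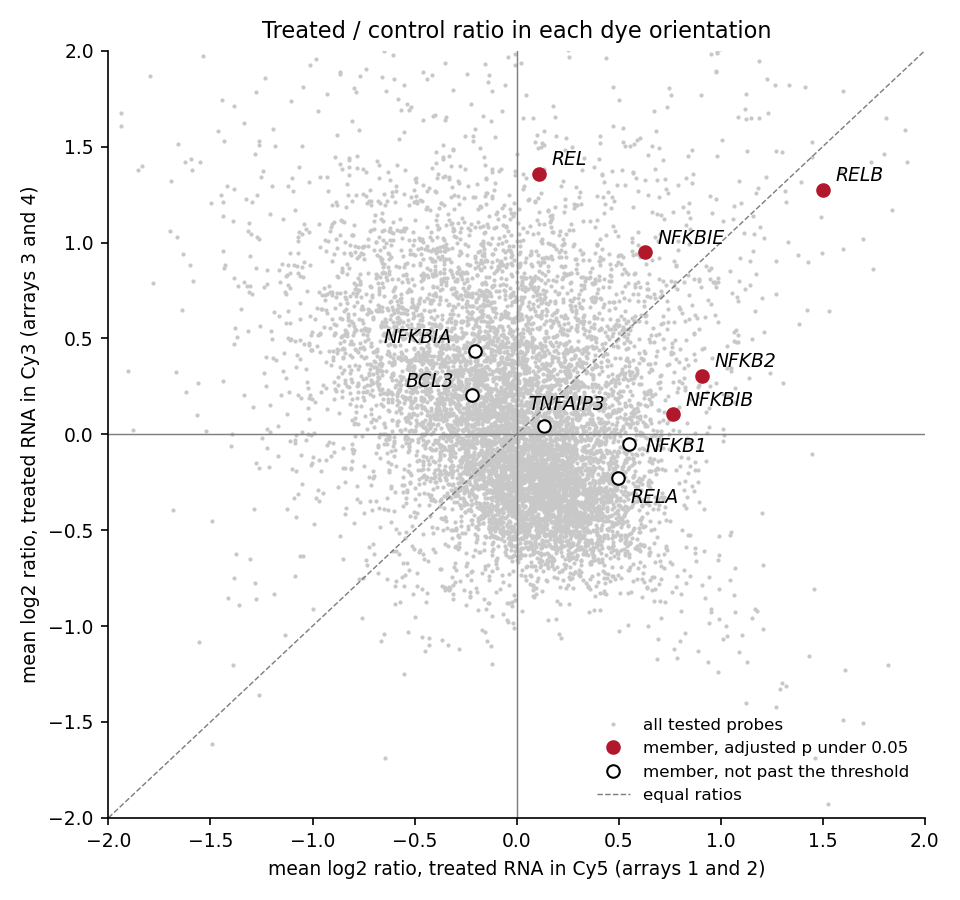
Mean log2 ratio of treated to control cells on arrays 1 and 2 (x axis, treated RNA in Cy5) and on arrays 3 and 4 (y axis, treated RNA in Cy3) for all tested probes (grey) and the 10 genes (red where past the threshold, open where not), with 61 probes of the 8852 outside the axes. RELB and NFKBIE lie near the dashed line of equal ratios, at 1.5 and 1.28 and at 0.63 and 0.95, while NFKB1, RELA, NFKBIA and BCL3 lie in quadrants of opposite sign.

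The ratios of several of these genes differed between the dye orientations. For 6 of the 10 genes the dye term had an adjusted p under 0.05 (NFKB1, REL, RELA, NFKBIA, NFKBIB and BCL3), as it had for 57.5% of all tested probes, and 4 of the 10 had means of opposite sign in the orientations. The share of all tested probes with means of opposite sign is not given here. Over those probes r was from -0.28 to -0.11 between arrays of unlike orientation. NFKB1, NFKB2, RELA, RELB, NFKBIB and TNFAIP3 had the higher mean with treated RNA in Cy5, and REL, NFKBIA, NFKBIE and BCL3 with treated RNA in Cy3. The genes that rose were thus of both kinds. The median over the 10 genes was 0.52 on arrays 1 and 2 and 0.26 on arrays 3 and 4. Arrays 3 and 4 fitted alone called RELB, NFKBIE, REL, NFKB2, NFKBIA and BCL3 higher and RELA lower, but 70.1% of all probes passed there, 39.5% as higher and 30.6% as lower. Arrays 1 and 2 fitted alone called RELB, NFKBIE, NFKB2, NFKBIB, NFKB1 and RELA higher and 0 lower, where 30.4% of all probes passed, 13.3% as higher and 17.1% as lower. RELB, NFKBIE and NFKB2 were called higher in both. RELB (adjusted p = 0.243), TNFAIP3 (adjusted p = 0.585), NFKBIE (adjusted p = 0.0666) and NFKB2 (adjusted p = 0.0732) were not past the threshold for the dye.

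In the order of the fitted ratios, RELB stood 0.60 ± 0.33 (SD, n = 4 arrays) above NFKBIE on the log2 scale and was above it on every array. NFKB2 stood 0.17 ± 0.16 above NFKBIB, also on every array. In the other 7 pairs of neighbours, from NFKBIE and REL down to TNFAIP3 and BCL3, the SD over the arrays was larger than the mean difference, so their order is not set by these arrays. The exact sign-flip permutation test (two-sided) gives no p below 0.125 with 4 arrays, so none of the 9 pairs could pass it.

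**Figure D4:**
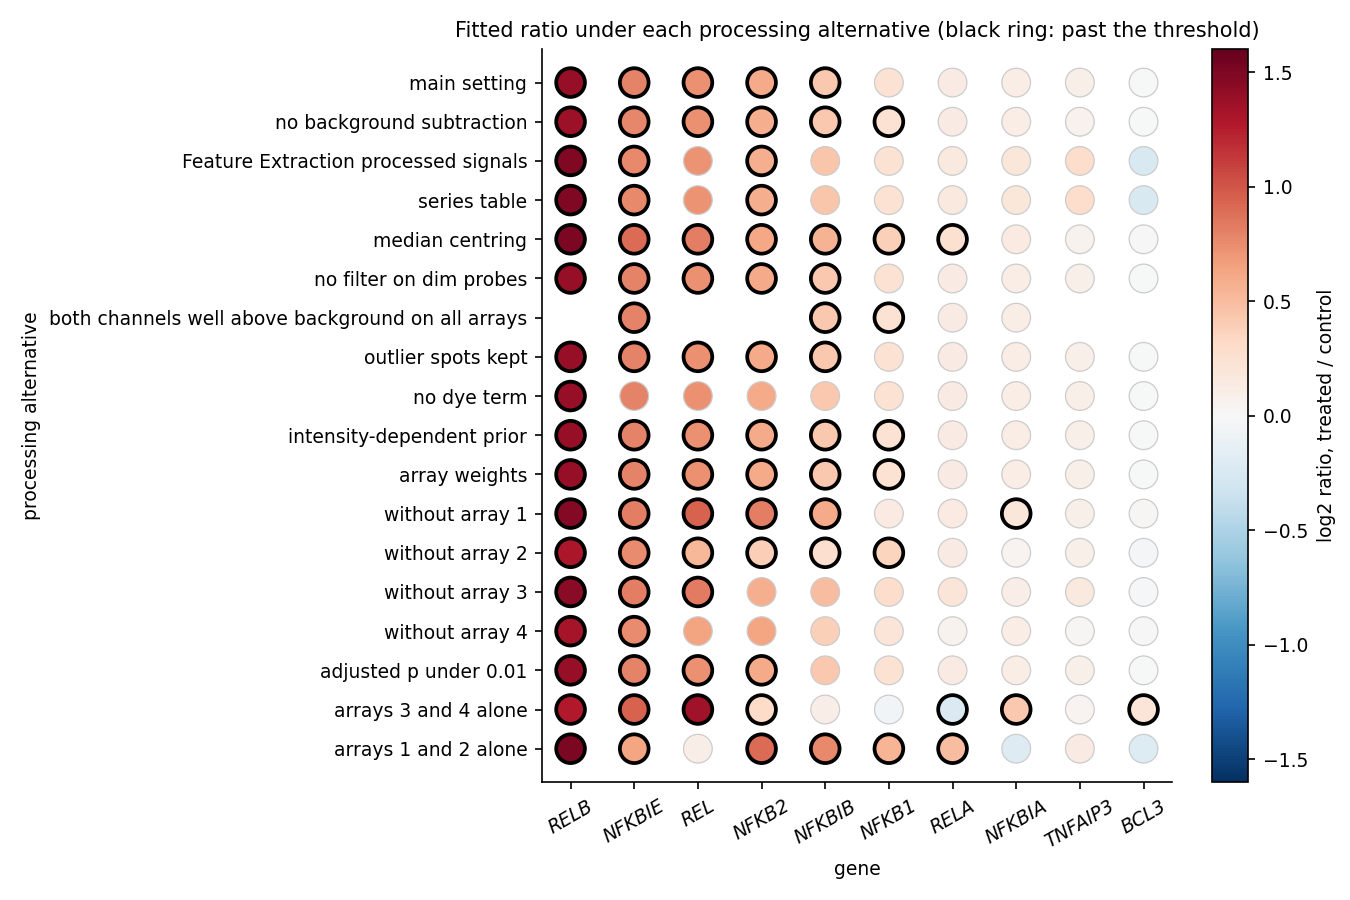
Fitted log2 ratio (colour) of the 10 genes (x axis) under the main setting and each processing alternative (y axis), with a black ring where the gene was past the threshold and no circle where its probe was not tested. RELB is ringed wherever it was tested, NFKBIE everywhere but without the dye term, and RELA changes colour between arrays 3 and 4 alone (-0.23) and arrays 1 and 2 alone (0.49).

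The wider pathway was described by 4 lists of 158 probes, of which 106 were tested. Of these, 45 rose, 15 fell and 46 did not pass the test, which is 56.6% called against 36.3% over all tested probes, and their median log2 ratio was 0.17. Without the dye term 3 of 108 tested rose and 0 fell (limma, adjusted p under 0.05), where 0.604% of all probes passed, 0.559% as higher. The sign was the same on every array for 42 of the 106 and for 2065 of all 8852 tested probes.

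Among the IKK complex and the signalling proteins above it, 17 of 32 tested genes rose and 2 fell, with a median of 0.25. The share called was 59.4%, against 36.3% of all tested probes, 23.2% as higher and 13.1% as lower. TRAF6, a ubiquitin ligase of the interleukin-1 and Toll-like receptor branch, rose by 1.16 ± 0.34 on the log2 scale (SD, n = 4 arrays, adjusted p = 0.00014, limma) and ranged from 0.73 to 1.57 over the arrays. RIPK2, the kinase downstream of NOD receptors, had 1.09 ± 0.14 with an adjusted p of 6.8e-05 (limma), and was past the threshold under all 17 alternatives. PELI1, a ubiquitin ligase of the same branch, had 0.84 ± 0.25, and TAB2, an adaptor of the kinase TAK1, had 0.79 ± 0.25. Both were higher on all 4 arrays, but 1 sign on all arrays was a condition for naming list genes by their rank. Of the core proteins, which are named after their values were seen, MAP3K14 (NIK) had 0.45 (adjusted p = 0.0365, limma) and was above 0 on every array, and IKBKB had 0.33 (adjusted p = 0.0141). The values of IKBKB were 0.43, 0.76, -0.01 and 0.13 on arrays 1 to 4, and its dye term passed too (adjusted p = 0.0194, limma). CHUK, the IKK subunit of the non-canonical pathway, had 0.03 (adjusted p = 0.794), and IKBKG had 0.08 (adjusted p = 0.338), with 0.65 and 0.67 on arrays 1 and 2 and -0.49 and -0.50 on arrays 3 and 4.

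Among other inhibitors and modulators, 8 of 24 tested genes rose, 2 fell and 14 did not pass, with a median of 0.12. The share called, 41.7%, was near the 36.3% of all tested probes. TRIB3, a pseudokinase best known as a gene of the endoplasmic reticulum stress response, had the largest rise of this list, 1.42 ± 0.37 (SD, n = 4 arrays, adjusted p = 7.4e-05, limma), and belongs to the study's list chosen on these arrays. SIRT1, a deacetylase that acts on p65, had 0.73, N4BP1 0.52, and EP300, an acetyltransferase and coactivator, 0.50. The mean of EP300 was 0.12 on arrays 1 and 2 (adjusted p = 0.471, limma) and 0.88 on arrays 3 and 4, and that of SIRT1 was 0.39 and 1.08. SOCS1, a suppressor of cytokine signalling, fell by 0.37 on the log2 scale (adjusted p = 0.0161, limma), and NFKBID, a nuclear IκB protein, fell by 0.24 (adjusted p = 0.0218). The call of SOCS1 was lost under 5 alternatives and that of NFKBID under 6, among them each orientation alone. For NFKBID both channels were well above background on arrays 3 and 4 only.

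Of the ligands and receptors, only 13 of 38 probes were bright enough to be tested, and those for TNF, LTA and IL1B were not among them. Of the 13, 6 rose and 2 fell, with a median of 0.23, which is 61.5% called against 36.3% of all tested probes. IL1R1, the interleukin-1 receptor, had 0.72 ± 0.30 (SD, n = 4 arrays, adjusted p = 0.00052, limma), TNFRSF9 0.53 and CD40 0.32, with CD40 held under only 10 of 16 alternatives. TLR6 was among the 6, but its treated channel was well above background on 2 arrays and its control channel on 0, so no fold is given. TNFRSF1B, the second TNF receptor, fell by 0.62 (adjusted p = 0.00044, limma), and TNFSF14, the ligand LIGHT, fell by 0.36. For TNFSF14 the treated channel was well above background on 1 array and the control channel on 2, and its mean was -0.12 on arrays 1 and 2 (adjusted p = 0.433, limma) and -0.61 on arrays 3 and 4. The fall of TNFRSF1B was 0.13 on arrays 1 and 2 and 1.10 on arrays 3 and 4.

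Of the target genes, 14 of 37 tested rose, 9 fell and 14 did not pass, and their median of 0.08 was the lowest of the 4 lists. The share called was 62.2%, against 36.3% of all tested probes. ATF3, a stress-induced transcription factor with several known activators, had the largest rise, 2.10 ± 0.39 (SD, n = 4 arrays, adjusted p = 5.5e-05, limma), and is in the study's list chosen on these arrays. The chemokines CXCL3 and CXCL2 had 1.36 ± 0.45 and 1.30 ± 0.54, with all 4 arrays above 0, which the rule for naming list genes required. CXCL8, which encodes interleukin-8, had a fitted log2 ratio of 1.51, but its values were 0.04 and 0.25 on arrays 1 and 2 and 2.84 and 2.89 on arrays 3 and 4. CCND1 fell by 0.75 (adjusted p = 0.0004, limma), CCL2 by 0.63, TAP1 by 0.29 and BCL2L1 by 0.28. The study also measured some of these genes in K562 cells by QRT-PCR, and reported ATF3 as raised and CCND1 and CCL2 as lowered there. The treated channel of CCND1 was well above background on 1 array and its control channel on 2. For CCL2 and BCL2L1 each channel was well above background on 2 arrays. On arrays 1 and 2 alone CCL2 was at -0.44 (adjusted p = 0.0976, limma), TAP1 at -0.08 (adjusted p = 0.603) and BCL2L1 at -0.14 (adjusted p = 0.385). On arrays 3 and 4 alone these 3 genes were at -0.83, -0.51 and -0.42, while CCND1 was at -0.75 in each orientation. CCND1 encodes cyclin D1, CCL2 a monocyte chemokine, TAP1 a peptide transporter of antigen presentation and BCL2L1 the survival protein BCL-XL.

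**Figure D5:**
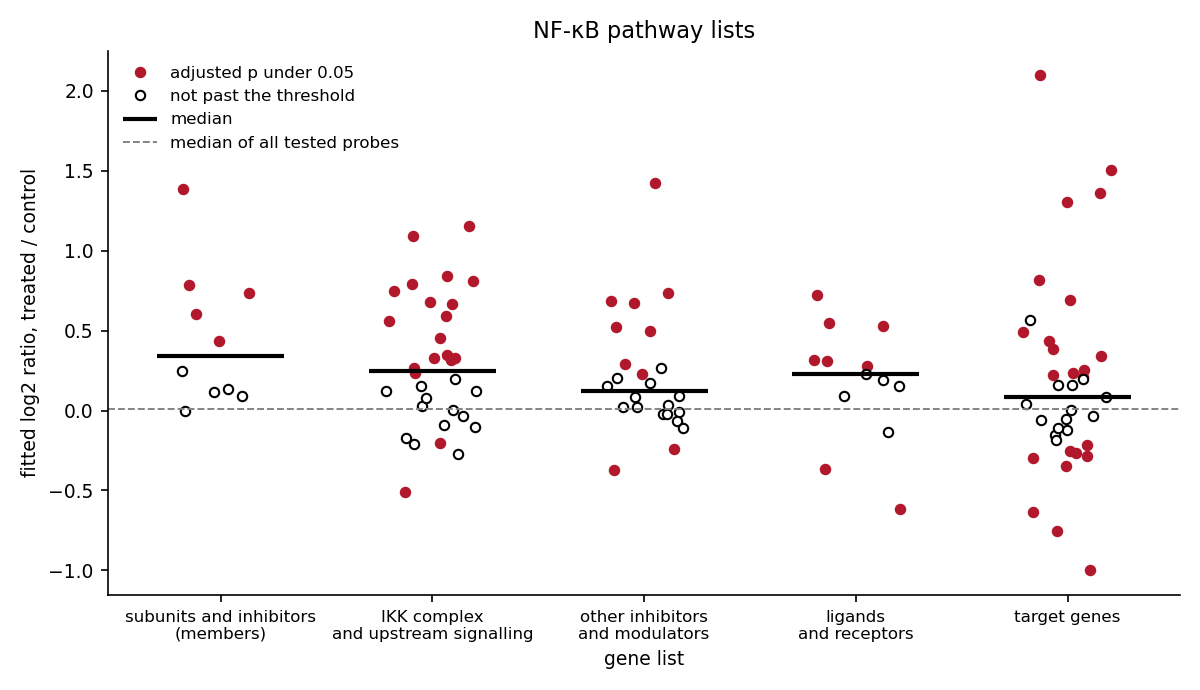
Fitted log2 ratio of treated to control cells (y axis) for each tested probe of the 10 genes and of the 4 pathway lists (x axis), red where past an adjusted p of 0.05 and open where not, with the median of each list as a black bar and that of all tested probes dashed. The medians run from 0.34 for the 10 genes to 0.08 for the target genes, and ATF3 is the highest point at 2.10.

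For each of the 5 genes that rose, the probes with the most similar log2 ratios over the 4 arrays were found by the root mean square difference, among the 6852 or 6853 other named probes that could be compared. NFKBIE was nearest to TAB2 (0.043), then PGBD3 (0.046) and DAAM1 (0.054). RELB was nearest to TUFT1 (0.122), ZNF627 and KLHL25, and REL to SIK2 (0.126), BIRC3 (0.169) and CDNF. The values of BIRC3, an inhibitor of apoptosis that also acts above IKK, were -0.19, 0.43, 1.48 and 1.52 on arrays 1 to 4, the same order as those of REL. NFKB2 was nearest to BANP (0.083), FICD and H3C4, and NFKBIB to SPRR2C (0.064), HSPA8 (0.066) and TMEM88 (0.067). With 4 arrays such nearness describes these ratios and nothing more.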

How the data were processed

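Treated and control RNA of K562 cells was set against each other on 4 two-colour Agilent arrays with a dye swap. The authors quantified the images with Feature Extraction 9.5.1.1 and deposited, for both channels, raw spot intensity and local background intensity. The deposited files also hold processed intensity values and the log10 ratio, Cy5 over Cy3. The authors' series table held the log10 ratio turned to treated over control, with from 99.9% to 100% of its values within 0.001 of the array files and a median of 0 on every array. The build in the file headers was hg18.

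For the background, normexp with an offset of 50 was fitted on all spots before the control spots were removed. Log2 ratios were then normalised within each array by loess (span 0.3). Spots marked as outliers were set missing, which touched no spot of the 10 genes. A probe was tested when at least 1 channel was well above background on at least 2 arrays. Treatment and dye orientation were fitted in limma 3.58.1 (R 4.3.3), and p-values were adjusted by Benjamini-Hochberg over 8852 probes. Confidence intervals are 95% intervals of this fit. Probes were named through their transcript accession and a RefSeq table of GRCh38.p14, which named 12002 of 14297. The array annotation of exons was not used here.

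The step was tested on simulated ratios of this comparison: of 200 probes given a log2 ratio of 1 among the 8852, the fit called 87.5%, and 2.78% of its calls were false. That ratio is above those of NFKBIE (0.79), REL (0.74), NFKB2 (0.61) and NFKBIB (0.44), and 36.3% of probes were called in the data. The simulation does not give the recovery or the false share for calls of that size and number. Saturated spots numbered 0 on each array, and the number of arrays limits the precision. The members and lists were chosen with earlier results of these data known. The pathway genes named were up to 4 with the largest rise and up to 4 with the largest fall of each list among those past the threshold with 1 sign on all 4 arrays, and the 3 nearest probes of each gene that rose. The alternatives were no background subtraction, the processed signals of Feature Extraction, the authors' series table, median centring, no filter or a stricter filter on dim probes, outlier spots kept, a fit without the dye term, array weights, a prior that depends on intensity, a threshold of 0.01 and each array left out in turn. The pairs of arrays of each orientation alone were added after seeing the data. Some values of the marker check are not reported here.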

Additional observations from a re-analysis of the deposited data

Results flagged for a closer look

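TNFAIP3 had 1 array far from the others. The gap between array 3 (log2 ratio -0.09) and the nearest other array made up 0.850 of the range of the 4 arrays, which is over the 95% limit of Dixon's test. On that array the treated channel was not well above background, and on arrays 1 and 2 neither channel was. Dixon's rule was applied to 34 genes and chance flags about 1 in 20 groups, so a single flag is within what chance gives.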

How the results depend on the processing

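Of the 10 genes, 5 rose with all 4 arrays. This count was 3 with Feature Extraction's processed signals, 3 with the series table (NFKB2, NFKBIE and RELB in both), 3 with both channels above background on every array required (NFKB1, NFKBIB and NFKBIE, with 5 of the 10 tested), and 1 without the dye term. It was 7 with median centring, which added NFKB1 and RELA, and 6, with NFKB1 added, with no background subtraction, an intensity-dependent prior or array weights. With each array left out in turn it ran from 2 to 6, the lowest without array 4 (NFKBIE and RELB) and 3 without array 3. The share of all probes called moved too, from 36.3% to 13.1% without array 4, 18.2% without array 3 and 47.0% without array 1. With all 4 arrays kept, this share was 30.8% with the processed signals, 30.4% with the series table and 42.2% with both channels required. It was 32.5% with median centring and 0.604% without the dye term. With no background subtraction, array weights or an intensity-dependent prior it was from 36.4% to 37.7%. The count of genes that fell was 0 except on arrays 3 and 4 alone, where it was 1 (RELA). The count of pathway probes that rose was 45 of 106 tested. It was 28 of 60 with both channels well above background, 3 of 108 without the dye term and 29 of 100 on arrays 1 and 2 alone. With an array left out it ran from 25 to 56, with from 100 to 105 tested. The count that fell, 15 of the 106, was 8 with median centring and 9, of the 60 tested, with both channels well above background. It was 0 without the dye term, 6 at an adjusted p under 0.01, 34 on arrays 3 and 4 alone and 7 on arrays 1 and 2 alone. With an array left out the count that fell ran from 2 to 17. The median of the 10 genes was 0.52 on arrays 1 and 2 alone. The sign turned on arrays 3 and 4 alone for NFKB1 (-0.050), RELA (-0.23) and BCL3 (0.21), and on arrays 1 and 2 alone for NFKBIA (-0.20). BCL3, at -0.01 with all arrays, was 0.0094 with median centring and ran from -0.026 to 0.014 with an array left out, above 0 without array 1 and without array 4 (0.0066). The cause of these changes was not tested. Median centring moved the share of higher probes among all calls from 63.9% to 79.5%. Over all probes, 3213 were called with the dye term and 54 without it.

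Every ratio is already a paired difference of the treated and control RNA on 1 array. The fit was thus paired by array: the replicate number is the array itself, and no further block was fitted. The number of arrays and their background set the limits: channels were well above background on all 4 arrays for 5 of the 10 genes, the standard errors do not hold the differences between dye orientations, and dye orientation and background cannot be told apart.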
